A study of Mus musculus and Macaca nemestrina with 20 samples.

Results

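Elastic fibre, proteoglycan and matricellular genes encode the non-collagen part of the extracellular matrix. A list of 39 such genes was followed by symbol in dorsal root ganglia (DRG) of mice and, in capitals, in DRG of pig-tailed monkeys (Macaca nemestrina). All 39 were found among the 29766 genes of the mouse tables and among the 35194 genes of the monkey tables. The list holds 6 elastic fibre core and microfibril genes, 6 fibulin and emilin genes, 4 latent TGF-beta binding proteins, 10 small leucine-rich proteoglycan genes (Chad, a leucine-rich protein of cartilage, is counted with them), 2 large chondroitin sulfate proteoglycans, 8 matricellular genes and glycoproteins, and 3 lysyl oxidases.

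Elastic fibres form when tropoelastin is laid onto a scaffold of fibrillin microfibrils, guided by fibulins and emilin and crosslinked by lysyl oxidases. Small leucine-rich proteoglycans such as decorin bind collagen fibrils and set their spacing, and matricellular proteins such as thrombospondins link matrix to cell surfaces. In the ganglion and its roots many, though not all, of these proteins are made by fibroblasts of the capsule, endoneurium and meninges. Most latent TGF-beta binding proteins hold stored TGF-beta in the same matrix.

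Bulk RNA sequencing gave 7 mouse libraries labelled ADAM17 knockout and 7 control libraries labelled ADAM17 flox. Batch 1, as the labels give it, held knockout libraries 1 to 4 and flox libraries 1 to 3, and batch 2 held knockout libraries 5 to 7 and flox libraries 4 to 7. In monkeys, 3 libraries came from DRG that serve skin treated with SADBE (squaric acid dibutyl ester, which sensitises skin on contact) and 3 from DRG of skin given vehicle. ADAM17 is a membrane protease that sheds cytokines, growth factor ligands and receptors. The labels name neither the tissue nor the promoter of the deletion, nor do they give age, sex, strain, the dose or duration of SADBE, or whether a library pooled animals, so p-values measure the spread between these libraries.

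In batch 1 the knockout libraries held 12.1 to 14.7 M (1e6) counts and the flox libraries 46.9 to 52.1 M. In batch 2 the knockout libraries held 27.9 to 30.8 M and the flox libraries 30.9 to 36.0 M. Monkey totals were 9.02 to 22.4 M with SADBE and 13.7 to 27.1 M with vehicle. TPM is a level per transcript length. As deposited, the TPM of all genes in a batch 1 library came to between 78.7% and 83.4% of 1e6 for knockout, and between 60.1% and 79.7% for flox. In batch 2 that sum lay between 97.6% and 97.9% for knockout, and between 95.4% and 97.9% for flox. Levels are given as deposited and compared library by library within a batch only, and in batch 1 even those are not on quite 1 scale, while ranges over all 7 libraries of a genotype pool both batches. Adam17 itself ran from 4.70 to 9.18 TPM in knockout and from 5.75 to 9.51 TPM in flox libraries (log2 fold change 0.03 ± 0.18, SE, adjusted p = 0.930), a gene-level value that does not check a deletion of some exons or cells. Neuronal markers were present in every mouse library, with summed levels of 1891 to 6602 TPM over 8 genes. The mitochondrial share of counts in batch 1 lay between 8.21% and 8.70% for knockout, and between 8.22% and 10.9% for flox. In batch 2 it lay between 0.734% and 1.03% for knockout, below the flox range of 1.40% to 1.76%. Y-linked transcripts summed to 59.9 and 66.8 TPM in knockout libraries 6 and 7, and to 1.1 to 3.31 TPM in the other 12.

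Elastic fibre, proteoglycan and matricellular transcripts were mostly lower in knockout than in flox DRG. edgeR's quasi-likelihood test, with batch in the model, called 22 of the 38 tested members lower and 0 higher at a Benjamini-Hochberg adjusted p under 0.05. Over all 15654 genes tested, 7.51% were called lower and 7.97% higher. At an unadjusted p under 0.05 there were 27 members, all of them lower, where 15.5% of all genes were lower and 15.4% higher. DESeq2 called 25 members lower and 0 higher, and the share of all mouse genes that it called is not given here. The median log2 fold change was -1.09 over the 38 tested members and -0.01 over all genes. The members were chosen with earlier results of these data known, so their contrast with all genes is a description only. The aggrecan gene Acan, the 1 member not tested, held 0 to 700 counts a library. In batch 2 the mitochondrial share of counts was lower in knockout libraries too, and its part in the members' result was not tested. In bulk tissue, fewer cells of a type and less RNA per cell cannot be told apart.

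The decrease was spread over the classes of the list. Lower calls were made for 5 of 6 elastic fibre core and microfibril genes, 4 of 6 fibulin and emilin genes, 2 of 4 latent TGF-beta binding proteins and 5 of 10 small leucine-rich proteoglycan genes. They were also made for 5 of 8 matricellular genes and 1 of 3 lysyl oxidases, and for 0 of the 1 tested large proteoglycan. The class medians ran from -1.54 for the elastic fibre core and microfibrils to -0.26 for the lysyl oxidases. Of the 16 members without a call, 12 had a negative and 4 a positive log2 fold change.

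**Figure D1:**
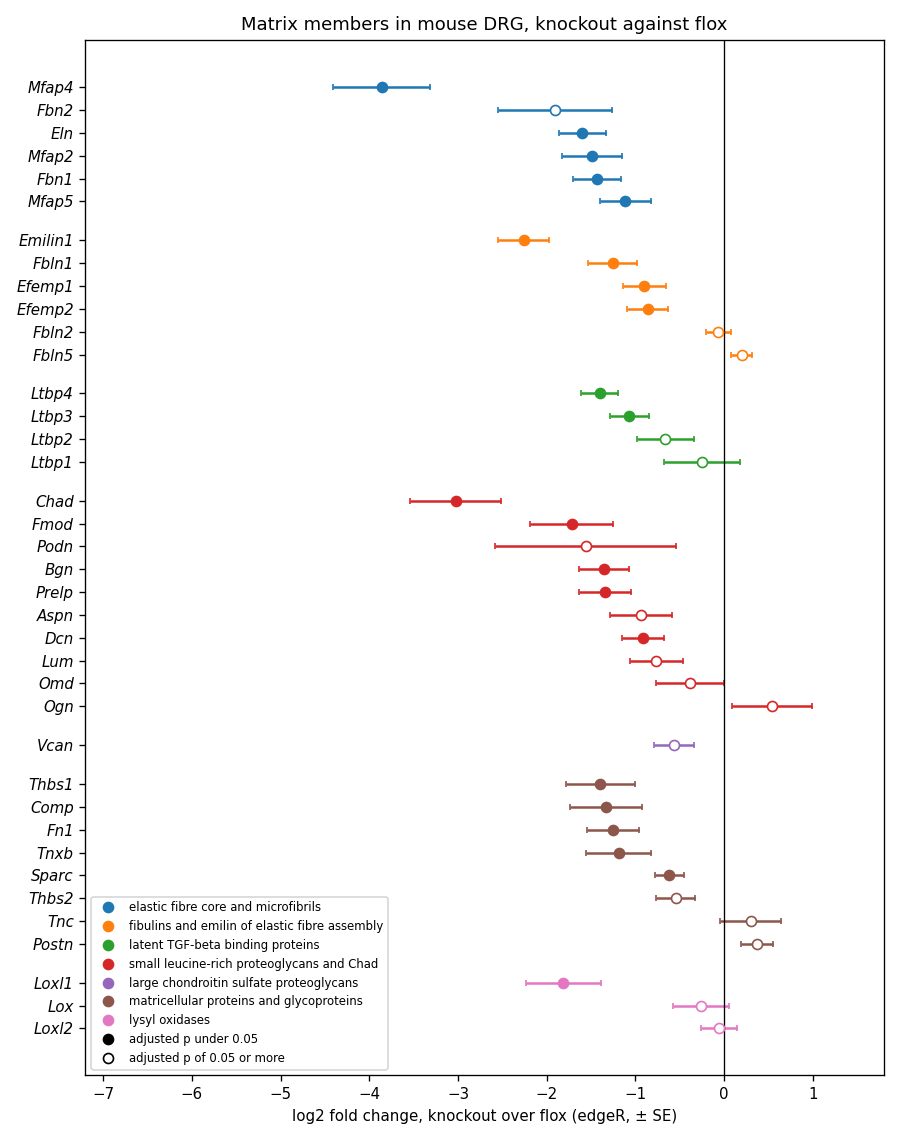
Log2 fold change of each tested member in mouse DRG, knockout over flox, from edgeR with batch in the model. Points are estimates, bars are ± SE, filled points passed an adjusted p under 0.05 and colours mark the classes. All 22 filled points lie left of 0, with Mfap4 at -3.86 and Chad at -3.03 farthest from it.

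Every knockout library lay below every flox library, in both batches, for 9 of the 38 tested members. These were Eln, Fbn1, Fbn2, Mfap2, Mfap4, Fbln1, Emilin1, Ltbp4 and Chad. The same separation was found for 2.2% of all tested genes. In batch 1 alone it held for 13 members and 4.66% of all genes, and in batch 2 alone for 19 members and 18.6% of all genes. The opposite separation, with knockout above flox, held for 0 members and 6.34% of all genes in batch 1, and for 1 member, Ogn, and 8.43% of all genes in batch 2. With every TPM column rescaled to the same sum, 9 members and 4.05% of all genes lay below in both batches, and the members were the same 9. In batch 1 alone it was then 16 members and 8.83% of all genes, with Podn, Vcan, Thbs2 and Lox added and Efemp1 lost, and in batch 2 alone 20 members, with Efemp1 added, and 19.2% of all genes.

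The 250 bases before an annotated start were read from RefSeq on GRCm38.p6, where 27 of the 39 members matched with 38 promoters between them. The promoters are shown for Emilin1 and Chad, which fell without overlap in both batches, for the microfibril gene Mfap2, which did so too, and for Ogn, which was higher in knockout in batch 2. Capitals mark the motifs searched on both strands. These were the TATA box TATAAA, the AP-1 site TGANTCA, the SMAD element CAGACA and the box CCAAT. In the sequences shown, the matches of Ogn are the one overlap. Each sequence reads 5′ to 3′ towards the start.
Emilin1 (chr5:30913536-30913785, plus strand): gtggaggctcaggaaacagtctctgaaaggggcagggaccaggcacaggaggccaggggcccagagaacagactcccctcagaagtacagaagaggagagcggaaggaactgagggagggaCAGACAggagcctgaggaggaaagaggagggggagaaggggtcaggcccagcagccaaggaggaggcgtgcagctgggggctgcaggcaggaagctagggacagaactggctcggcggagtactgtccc
Chad (chr11:94564797-94565046, plus strand): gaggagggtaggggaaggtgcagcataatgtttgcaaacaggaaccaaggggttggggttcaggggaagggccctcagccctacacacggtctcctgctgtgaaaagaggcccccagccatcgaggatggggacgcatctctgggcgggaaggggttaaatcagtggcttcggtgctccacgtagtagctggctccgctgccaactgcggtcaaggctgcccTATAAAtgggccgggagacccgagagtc
Mfap2 (chr4:141010174-141010423, plus strand): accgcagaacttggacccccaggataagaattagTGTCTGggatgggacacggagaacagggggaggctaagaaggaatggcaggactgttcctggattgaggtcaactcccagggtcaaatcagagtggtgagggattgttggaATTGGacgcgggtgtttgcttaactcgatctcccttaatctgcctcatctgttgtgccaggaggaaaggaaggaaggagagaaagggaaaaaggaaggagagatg
Ogn (chr13:49607765-49608014, plus strand): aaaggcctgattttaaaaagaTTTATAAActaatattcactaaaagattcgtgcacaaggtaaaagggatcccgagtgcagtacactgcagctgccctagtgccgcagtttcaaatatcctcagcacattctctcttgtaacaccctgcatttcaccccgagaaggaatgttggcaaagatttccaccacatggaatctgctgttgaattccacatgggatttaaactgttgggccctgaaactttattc
TATAAA was found in 7 of the 38 member promoters and in 12.4% of 32851 mouse promoters of the same length. TGANTCA was found in 2 member promoters and in 6.75% of all promoters, CAGACA in 9 and 17.1%, and CCAAT in 9 and 33.85%. These counts are of windows, and windows of the same gene can overlap. The same TATAAA site of Tnc and the same CAGACA site of Fbln1 were each counted in 2 windows. The Chad promoter carried TATAAA at position -28, counted back from the start. The Emilin1 promoter carried CAGACA at -129, and this window lies inside the GENCODE span of the gene, which starts farther upstream. The Mfap2 promoter carried CAGACA at -216 and CCAAT at -105, both on the opposite strand. The table holds 2 windows for Mfap2, and the one not shown, at chr4:141010431-141010680, carried none of these motifs. In Ogn a pair of overlapping TATAAA matches, on opposite strands, lay at -229 and -227. A match is a description of these letters only.

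The elastic fibre core and its microfibrils showed the lowest class median. Mfap4 (GRCm38 chr11:61485431-61488900, plus strand) encodes a microfibril-associated protein that binds tropoelastin and fibrillin. In knockout DRG, Mfap4 stood at 3.99, 2.205, 0.260 and 2.36 TPM in batch 1 and at 0.484, 0.185 and 0.115 TPM in batch 2. In flox DRG, Mfap4 stood at 13.99, 16.0 and 13.1 TPM in batch 1 and at 14.4, 7.31, 7.95 and 9.32 TPM in batch 2. The highest knockout library was below the lowest flox library in each batch, and knockout libraries 3, 5, 6 and 7 stood under 1 TPM. Mfap4 had a log2 fold change of -3.86 ± 0.55 (SE, adjusted p = 0.000320), a level 14.5-fold lower in knockout. Counts of Mfap4 ran from 4 to 1633 a library. Mapk7, a coding gene on the opposite strand that shares 89 of the 1922 exonic bases of Mfap4, had a log2 fold change of -0.02 ± 0.16 (SE, adjusted p = 0.961).

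Eln (chr5:134702593-134747323, minus strand) encodes tropoelastin, the elastic protein of the fibre. In knockout DRG, Eln stood at 0.862, 1.28, 1.01 and 1.22 TPM in batch 1 and at 0.127, 0.117 and 0.164 TPM in batch 2. In flox DRG, Eln stood at 2.36, 2.39 and 2.66 TPM in batch 1 and at 0.621, 0.550, 0.417 and 0.707 TPM in batch 2. The genotypes did not overlap in either batch, and levels in both were lower in batch 2. Eln had a log2 fold change of -1.60 ± 0.27 (SE, adjusted p = 0.00104). Counts of Eln were low, from 6 to 383 a library.

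Fbn1 (chr2:125300594-125507993, minus strand) encodes fibrillin 1, the main microfibril protein. In knockout DRG, Fbn1 stood at 1.74, 1.41, 1.38 and 2.89 TPM in batch 1 and at 1.07, 1.36 and 1.38 TPM in batch 2. In flox DRG, Fbn1 stood at 3.06, 4.66 and 3.10 TPM in batch 1 and at 6.81, 4.32, 3.47 and 3.68 TPM in batch 2. All knockout libraries were below all flox libraries of their batch, although knockout library 4 was close to flox library 1. Fbn1 had a log2 fold change of -1.43 ± 0.27 (SE, adjusted p = 0.00262). Fbn2, which encodes fibrillin 2 of developing microfibrils, had 0 to 161 counts a library and ran from 0 to 0.1001 TPM in knockout libraries (median 0.0651) and from 0.102 to 0.236 TPM in flox libraries (median 0.145). Its log2 fold change of -1.91 ± 0.64 (SE, adjusted p = 0.0544) did not pass, although the genotypes did not overlap within a batch. It passed without knockout library 5 (-2.54, adjusted p = 0.0409) and with DESeq2 (adjusted p = 0.0144).

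Mfap2 and Mfap5 encode small microfibril glycoproteins that bind fibrillin. Mfap2 (chr4:141010418-141015984, plus strand) ran from 1.95 to 8.75 TPM in knockout libraries (median 3.38) and from 5.16 to 19.995 TPM in flox libraries (median 11.9). Its knockout libraries were below the flox libraries of their batch, and knockout libraries 6 and 7 were the highest of the 7 knockout libraries. Mfap2 had a log2 fold change of -1.49 ± 0.34 (SE, adjusted p = 0.00839). Mfap5 (chr6:122505845-122529290, plus strand) was the most abundant gene of the class, from 50.6 to 215 TPM in knockout libraries (median 99.7) and from 128 to 471 TPM in flox libraries (median 276). Its genotypes overlapped in batch 1 and not in batch 2. Mfap5 had a log2 fold change of -1.11 ± 0.29 (SE, adjusted p = 0.0180), and the call was lost without flox library 2 (adjusted p = 0.0531).

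**Figure D2:**
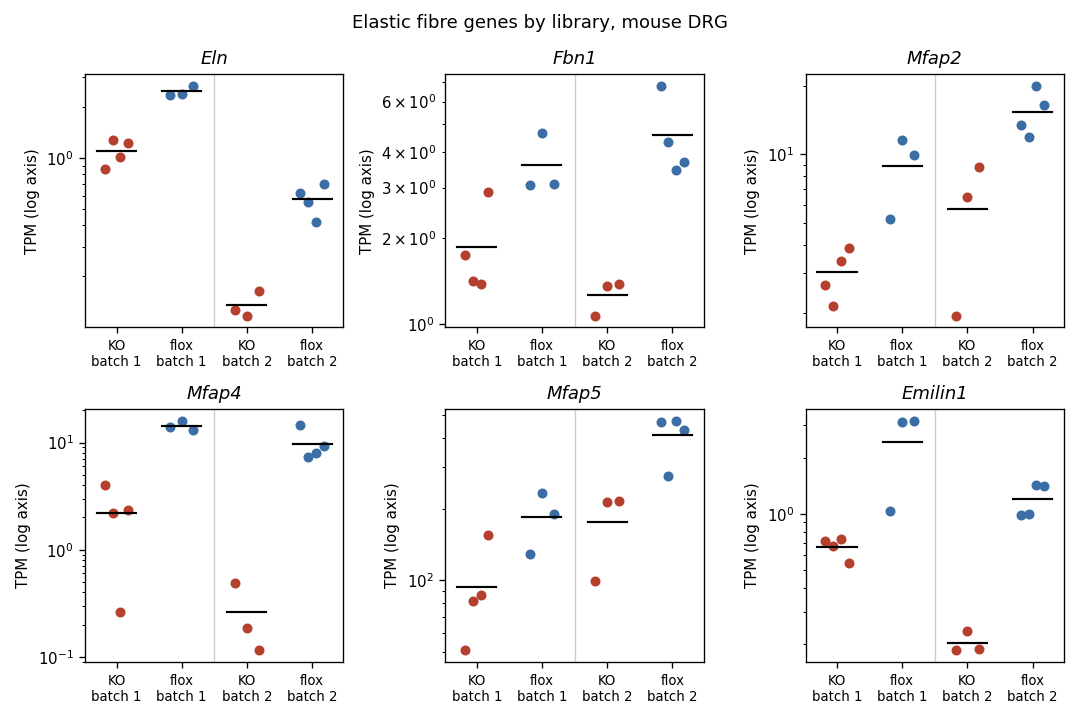
TPM of 6 elastic fibre genes in each mouse library on a log axis, by batch, with knockout (KO, red) left of flox (blue). Points are libraries and black lines are group means. Within each batch all KO points lie below all flox points for each panel but Mfap5, whose KO and flox libraries overlap in batch 1.

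Among the fibulins and emilin, which steer elastin onto the microfibril, Emilin1 changed most. Emilin1 (chr5:30913402-30921277, plus strand) encodes a glycoprotein at the interface of elastin and microfibrils. In knockout DRG, Emilin1 stood at 0.715, 0.674, 0.737 and 0.543 TPM in batch 1 and at 0.186, 0.236 and 0.188 TPM in batch 2. In flox DRG, Emilin1 stood at 1.03, 3.09 and 3.16 TPM in batch 1 and at 0.989, 1.00, 1.42 and 1.42 TPM in batch 2. Flox library 1 was the lowest flox library of batch 1 and still above all 4 knockout libraries. Emilin1 had a log2 fold change of -2.26 ± 0.29 (SE, adjusted p = 0.000105), the lowest adjusted p of the 38 members, and it was called in each batch alone (adjusted p of 0.0463 and 0.00572).

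Fbln1 (chr15:85205949-85286535, plus strand), which encodes fibulin 1 of elastic fibres and basement membranes, ran from 5.17 to 13.4 TPM in knockout libraries (median 7.89) and from 11.3 to 27.0 TPM in flox libraries (median 22.3). It did not overlap within a batch and had a log2 fold change of -1.26 ± 0.28 (SE, adjusted p = 0.00763). Efemp1 encodes fibulin 3 and ran from 41.9 to 85.2 TPM in knockout libraries (median 67.3) and from 81.8 to 161 TPM in flox libraries (median 134). Its log2 fold change was -0.90 ± 0.24 (SE, adjusted p = 0.0206), with overlap in batch 2 as deposited and in batch 1 after rescaling. Efemp2, which encodes fibulin 4, a partner of lysyl oxidase, ran from 10.2 to 37.6 TPM in knockout libraries (median 15.6) and from 12.6 to 60.1 TPM in flox libraries (median 48.8). Efemp2 had a log2 fold change of -0.86 ± 0.23 (SE, adjusted p = 0.0189), with overlap in batch 1. Without flox library 2 neither Efemp1 nor Efemp2 was called (adjusted p of 0.0565 and 0.0504). Efemp2 shares 173 of its 3788 exonic bases with Mus81 on the opposite strand, whose log2 fold change was -0.33 ± 0.14 (SE, adjusted p = 0.125).

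The other two fibulins of the list gave no call. Fbln2, which encodes fibulin 2, had a log2 fold change of -0.06 ± 0.14 (SE, adjusted p = 0.791). Fbln5 encodes fibulin 5, which tethers elastic fibres to cells, and had a log2 fold change of 0.20 ± 0.12 (SE, adjusted p = 0.258). Fbln5 ran from 11.99 to 28.6 TPM in knockout libraries (median 16.5) and from 12.8 to 22.5 TPM in flox libraries (median 13.9), with overlapping genotypes in both batches. The log2 fold change of Fbln2 from counts turned positive within batch 2 (0.11) and, at 0.01, without flox library 2 or knockout library 3. Its mean TPM in batch 2 was 44.4 in knockout and 51.4 in flox libraries, so the direction there depended on the measure.

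Most latent TGF-beta binding proteins anchor latent TGF-beta in the matrix, and LTBP4 also takes part in elastic fibre assembly. In knockout DRG, Ltbp4 stood at 10.5, 9.85, 9.86 and 12.4 TPM in batch 1 and at 10.2, 9.07 and 8.85 TPM in batch 2. In flox DRG, Ltbp4 stood at 15.5, 21.3 and 30.6 TPM in batch 1 and at 24.8, 24.9, 27.3 and 51.1 TPM in batch 2. No knockout library of Ltbp4 (chr7:27305136-27337692, minus strand) exceeded 12.4 TPM, and flox library 7 stood apart from the other flox libraries of its batch. Ltbp4 had a log2 fold change of -1.40 ± 0.21 (SE, adjusted p = 0.000372).

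In knockout DRG, Ltbp3 stood at 6.86, 8.55, 7.06 and 5.50 TPM in batch 1 and at 1.14, 1.35 and 1.16 TPM in batch 2. In flox DRG, Ltbp3 stood at 7.96, 8.49 and 8.63 TPM in batch 1 and at 5.06, 4.13, 3.27 and 5.09 TPM in batch 2. Ltbp3 (chr19:5740904-5758532, plus strand) overlapped between genotypes in batch 1 and was clearly separated in batch 2. Its log2 fold change was -1.07 ± 0.22 (SE, adjusted p = 0.00497) over both batches. Batch 1 alone gave -0.48 ± 0.17 and batch 2 alone -1.72 ± 0.25. For Ltbp3 the test of the difference between batches gave a called interaction (-1.28, adjusted p = 0.0464). That call was lost in 12 of the 14 fits that leave out 1 library (adjusted p up to 0.142) and without the low count filter (adjusted p = 0.0569). It was also lost with the replicate block (adjusted p = 0.0765) and without knockout libraries 6 and 7 (adjusted p = 0.196). Over all genes 1.03% had a called interaction. The call of Ltbp3 over both batches was lost without knockout libraries 6 and 7 (-0.85, adjusted p = 0.0519). Ltbp1 and Ltbp2 were not called, with log2 fold changes of -0.24 ± 0.43 (SE, adjusted p = 0.739) and -0.66 ± 0.32 (SE, adjusted p = 0.174). Ltbp1 ran from 4.64 to 34.3 TPM in knockout libraries (median 8.32) and from 7.06 to 37.7 TPM in flox libraries (median 13.4), and Ltbp2 from 0.309 to 1.25 TPM in knockout libraries (median 0.4928) and from 0.278 to 1.38 TPM in flox libraries (median 0.803).

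Small leucine-rich proteoglycans bind collagen fibrils. Dcn (chr10:97479609-97518143, plus strand), which encodes decorin, had the highest mean TPM of all members in both genotypes. In knockout DRG, Dcn stood at 678, 914, 813 and 1371 TPM in batch 1 and at 807, 1545 and 1525 TPM in batch 2. In flox DRG, Dcn stood at 1369.5, 1911 and 2037 TPM in batch 1 and at 2054, 2029.8, 2865 and 2904 TPM in batch 2. Knockout library 4 reached the level of flox library 1, and the genotypes did not overlap in batch 2. Dcn had a log2 fold change of -0.92 ± 0.23 (SE, adjusted p = 0.0156). Dcn made up a median of 46.7% of the summed TPM of the 39 members in knockout and 50.9% in flox libraries. The summed TPM ran from 1694 to 3050 in knockout and from 2819 to 5275 in flox libraries.

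Chad (chr11:94565047-94569127, plus strand) encodes chondroadherin, a leucine-rich protein of cartilage matrix that binds cells through integrins. In knockout DRG, Chad stood at 0.142, 0.391, 0.833 and 0.193 TPM in batch 1 and at 1.64, 2.94 and 1.41 TPM in batch 2. In flox DRG, Chad stood at 1.39, 8.26 and 6.21 TPM in batch 1 and at 13.3, 8.66, 4.57 and 14.5 TPM in batch 2. The knockout libraries were below the flox libraries in each batch, and flox library 1 was the lowest flox library. Chad had a log2 fold change of -3.03 ± 0.51 (SE, adjusted p = 0.00119). It was called in each batch alone (-4.10 in batch 1 and -2.22 in batch 2, adjusted p of 0.0329 and 0.0122). Counts of Chad ran from 3 to 832 a library. Chad lies within Acsf2 of the opposite strand without sharing an exonic base. Of 13 cartilage markers, 9 were tested, 4 were lower and 0 higher, where 7.51% of all genes were called lower and 7.97% higher. The sums of the cartilage markers were 21.2 to 25.8 TPM in knockout and 23.9 to 41.7 TPM in flox libraries of batch 1. In batch 2 the sums were 29.7 to 46.9 TPM in knockout and 60.2 to 83.2 TPM in flox libraries, and their part in the result of Chad was not tested.

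Bgn (chrX:73483602-73495933, plus strand) encodes biglycan, the closest relative of decorin, and ran from 19.6 to 72.8 TPM in knockout libraries (median 25.1) and from 35.9 to 183 TPM in flox libraries (median 114). Bgn had a log2 fold change of -1.35 ± 0.28 (SE, adjusted p = 0.00551), with overlap in batch 1. Prelp (chr1:133910304-133921414, minus strand), which encodes a proteoglycan that links basement membranes to connective tissue, ran from 5.06 to 14.8 TPM in knockout libraries (median 9.56) and from 12.4 to 39.4 TPM in flox libraries (median 27.3). Prelp had a log2 fold change of -1.34 ± 0.29 (SE, adjusted p = 0.00725), with overlap in batch 1 and none in batch 2. Fmod encodes fibromodulin, a collagen-binding keratan sulfate proteoglycan, and had a log2 fold change of -1.72 ± 0.47 (SE, adjusted p = 0.0249). In batch 1 it was -2.77 ± 0.34 (adjusted p = 0.00780) and in batch 2 -0.73 ± 0.57 (adjusted p = 0.438). The batch by genotype interaction of Fmod was not called (2.00, adjusted p = 0.231). The call of Fmod over both batches was lost without flox library 7 or knockout library 2 or 3 (adjusted p of 0.0523, 0.0556 and 0.0536).

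Lum, Aspn, Omd, Ogn and Podn were not called over both batches. Lum, which encodes lumican, had a log2 fold change of -0.76 ± 0.30 (SE, adjusted p = 0.0942) and passed without knockout library 4 (adjusted p = 0.0498). Aspn, which encodes asporin, had one of -0.94 ± 0.35 (SE, adjusted p = 0.0858) and passed without flox library 5 (adjusted p = 0.0423). Both were also called by DESeq2 (adjusted p of 0.0350 and 0.0296). Without knockout libraries 6 and 7, Lum was called at -1.29 (adjusted p = 0.0103) and Aspn at -1.35 (adjusted p = 0.0393). Omd, at -0.38 ± 0.38 (SE, adjusted p = 0.531) over all libraries, was then called at -1.17 (adjusted p = 0.0210). Podn, which encodes podocan, had 0 to 178 counts a library and a log2 fold change of -1.56 ± 1.02 (SE, adjusted p = 0.318).

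Ogn (chr13:49608046-49624501, plus strand) encodes osteoglycin, also called mimecan, and lies beside Omd, which encodes osteomodulin, and Aspn on chromosome 13. In knockout DRG, Ogn stood at 86.6, 77.3, 65.2 and 102 TPM in batch 1 and at 129, 327 and 363 TPM in batch 2. In flox DRG, Ogn stood at 98.1, 139 and 130.2 TPM in batch 1 and at 58.9, 70.0, 112 and 109.7 TPM in batch 2. In batch 2 all 3 knockout libraries were above all 4 flox libraries, with libraries 6 and 7 highest, while in batch 1 the genotypes overlapped and the knockout mean was lower. Within batch 1 Ogn had a log2 fold change of -0.77 ± 0.28 (adjusted p = 0.205), and within batch 2 one of 1.81 ± 0.37 (adjusted p = 0.0131). The batch by genotype interaction was called at 2.55 (adjusted p = 0.0319). That call was lost in 10 of the 14 fits that leave out 1 library (adjusted p up to 0.104) and without the low count filter (adjusted p = 0.0552).

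Without knockout libraries 6 and 7, which carried the Y-linked transcripts, the interaction of Ogn was 1.24 (adjusted p = 0.475) and its log2 fold change over both batches -0.30, against 0.54 with them. Knockout library 5, at 129 TPM, was above all 4 flox libraries of batch 2. The part of the Y-linked difference in the result of Ogn was not tested. Omd and Aspn had log2 fold changes of 0.46 ± 0.44 and -0.32 ± 0.33 in batch 2, against -1.27 ± 0.35 and -1.58 ± 0.51 in batch 1, and neither interaction was called. All 3 genes lie within the span of Cenpp on the opposite strand, with 0 to 7 shared exonic bases, and Cenpp had a log2 fold change of 0.33 ± 0.29 (adjusted p = 0.467).

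**Figure D3:**
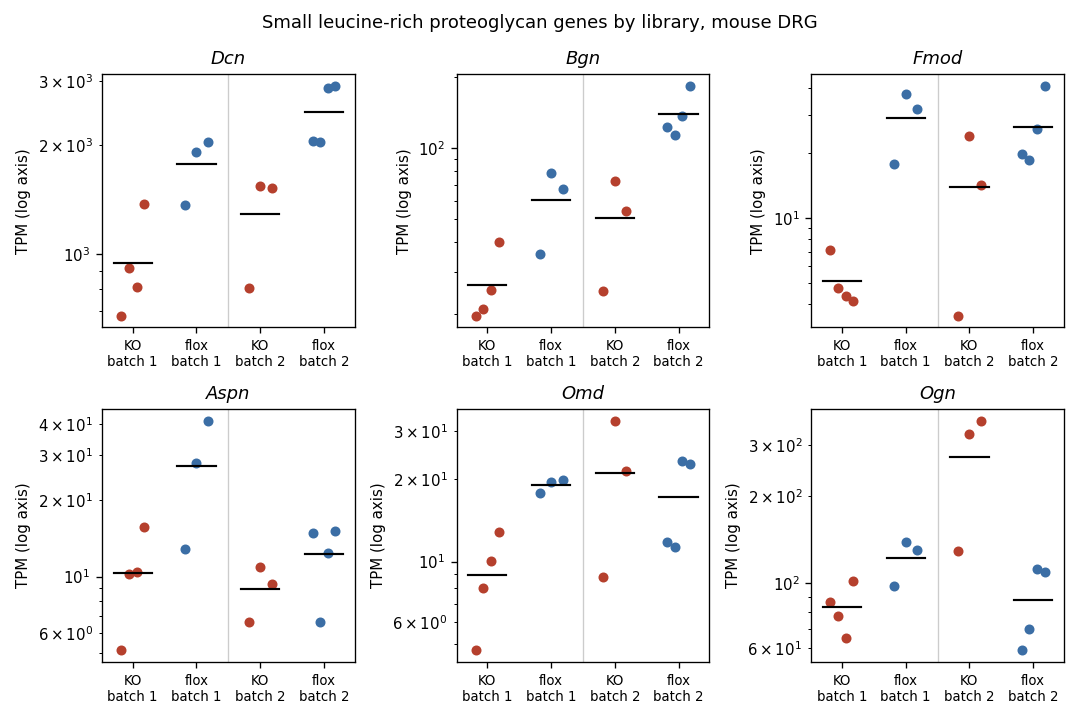
TPM of 6 small leucine-rich proteoglycan genes in each mouse library on a log axis, by batch, with knockout (KO, red) left of flox (blue). Points are libraries and black lines are group means. Ogn is the one panel in which all KO libraries of a batch, at 129 to 363 TPM in batch 2, lie above the flox libraries, at 58.9 to 112 TPM.

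The large chondroitin sulfate proteoglycans gave no call. Vcan encodes versican, which binds hyaluronan, and ran from 0.4934 to 1.85 TPM in knockout libraries (median 0.899) and from 0.795 to 1.45 TPM in flox libraries (median 1.05). Vcan had a log2 fold change of -0.57 ± 0.22 (SE, adjusted p = 0.0964), and it passed without flox library 5 (adjusted p = 0.0233). In batch 2 its direction depended on the measure. Mean TPM was 1.45 in knockout and 1.09 in flox libraries, while the log2 fold change from counts was -0.32 ± 0.36. Acan was at 0 to 0.132 TPM in knockout libraries and at 0.0163 to 1.86 TPM in flox libraries, with 1.86 TPM in flox library 3 and no other library above 0.132 TPM.

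Among the matricellular genes and glycoproteins, Fn1, Sparc, Thbs1, Comp and Tnxb fell. Fn1 (chr1:71585520-71653200, minus strand) encodes fibronectin, which binds integrins and collagen. In knockout DRG, Fn1 stood at 19.4, 19.1, 22.6 and 42.5 TPM in batch 1 and at 16.9, 37.4 and 24.7 TPM in batch 2. In flox DRG, Fn1 stood at 38.0, 70.7 and 62.1 TPM in batch 1 and at 63.1, 52.6, 49.3 and 82.0 TPM in batch 2. Knockout library 4 exceeded flox library 1 in batch 1, and the genotypes did not overlap in batch 2. Fn1 had a log2 fold change of -1.26 ± 0.29 (SE, adjusted p = 0.0103).

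Sparc (chr11:55394500-55423183, minus strand) encodes osteonectin, a collagen-binding glycoprotein, and had the next highest mean TPM. In knockout DRG, Sparc stood at 799, 678, 767 and 842 TPM in batch 1 and at 318, 318 and 358 TPM in batch 2. In flox DRG, Sparc stood at 736, 983 and 878 TPM in batch 1 and at 709, 569, 722 and 763 TPM in batch 2. The genotypes overlapped in batch 1 and were apart in batch 2. Sparc had a log2 fold change of -0.62 ± 0.16 (SE, adjusted p = 0.0173), with -0.40 ± 0.25 in batch 1 and -0.86 ± 0.15 in batch 2. The call was lost without flox library 2 or knockout library 5 (adjusted p of 0.0527 and 0.0503) and without knockout libraries 6 and 7 together (adjusted p = 0.0846). Sparc made up a median of 28.7% of the members' summed TPM in knockout and 17.6% in flox libraries.

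Thbs1 encodes thrombospondin 1, which binds cell surfaces and activates latent TGF-beta, and ran from 2.40 to 5.22 TPM in knockout libraries (median 3.43) and from 3.20 to 15.4 TPM in flox libraries (median 7.01). Thbs1 had a log2 fold change of -1.40 ± 0.39 (SE, adjusted p = 0.0273), and without flox library 2 it was -0.92 (adjusted p = 0.0731). Its call was also lost without flox library 4 (adjusted p = 0.0582) or knockout library 3 or 5 (adjusted p of 0.0519 and 0.0632). With limma voom Thbs1 was not called either (adjusted p = 0.0776). Comp, the cartilage oligomeric matrix protein, had a log2 fold change of -1.33 ± 0.41 (SE, adjusted p = 0.0382) and ran from 1.11 to 5.55 TPM in knockout libraries (median 2.58) and from 2.33 to 17.0 TPM in flox libraries (median 6.96). Tnxb encodes tenascin X, which connects collagen fibrils, and had a log2 fold change of -1.19 ± 0.37 (SE, adjusted p = 0.0398). These calls were the least stable: Comp was lost in 9 of the 14 fits that leave out 1 library (adjusted p up to 0.106) and Tnxb in 11 (adjusted p up to 0.0945). Comp was lost without flox library 2, 3 or 4 or knockout library 1, 2, 3, 4, 5 or 7. Its genotypes overlapped in both batches, and batch 2 alone gave -0.64 ± 0.49 (adjusted p = 0.419). Comp was also not called by limma voom (adjusted p = 0.245) or limma on log2(TPM + 1) (adjusted p = 0.0676), or without the low count filter (adjusted p = 0.0556). Tnxb was lost without flox library 2, 3, 4, 6 or 7 or knockout library 1, 2, 3, 5, 6 or 7.

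Thbs2, Postn and Tnc were not called. Thbs2, which encodes thrombospondin 2, had a log2 fold change of -0.55 ± 0.22 (SE, adjusted p = 0.0969). Postn, which encodes periostin, had one of 0.37 ± 0.18 (SE, adjusted p = 0.164), and ran from 5.24 to 18.1 TPM in knockout libraries (median 12.2) and from 5.76 to 12.7 TPM in flox libraries (median 6.66). Tnc, which encodes tenascin C, had one of 0.30 ± 0.35 (SE, adjusted p = 0.599), with -0.44 ± 0.42 in batch 1 and 1.00 ± 0.43 in batch 2. Without knockout library 6 the log2 fold change of Tnc was -0.03.

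Of the lysyl oxidases, the copper enzymes that crosslink elastin and collagen, Loxl1 fell. In knockout DRG, Loxl1 stood at 1.54, 1.32, 0.697 and 1.63 TPM in batch 1 and at 0.161, 0.897 and 0.264 TPM in batch 2. In flox DRG, Loxl1 stood at 2.65, 5.42 and 3.73 TPM in batch 1 and at 3.17, 1.07, 0.882 and 1.801 TPM in batch 2. Loxl1 (chr9:58287738-58313186, minus strand), the member of the family tied to elastic fibre upkeep, was separated by genotype in batch 1 and overlapped in batch 2. Loxl1 had a log2 fold change of -1.82 ± 0.42 (SE, adjusted p = 0.00951). Lox, the founding enzyme, ran from 1.63 to 5.30 TPM in knockout libraries (median 2.71) and from 1.99 to 6.43 TPM in flox libraries (median 3.63) and had a log2 fold change of -0.26 ± 0.32 (SE, adjusted p = 0.619). Loxl2 ran from 3.08 to 11.6 TPM in knockout libraries (median 4.56) and from 3.10 to 9.24 TPM in flox libraries (median 3.96) and had a log2 fold change of -0.06 ± 0.20 (SE, adjusted p = 0.880). Without knockout libraries 6 and 7 Lox was called at -0.86 (adjusted p = 0.0476).

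The batches were compared member by member. Batch 1 alone gave 3 lower calls, Emilin1, Fmod and Chad, and 0 higher, where 0.687% of all genes were called lower and 1.12% higher. At an unadjusted p under 0.05, 30 of the 39 members tested in batch 1 passed, all of them lower, where 9.23% of all genes were lower and 7.15% higher. Batch 2 alone gave 10 lower calls and 1 higher, Ogn, where 5.99% of all genes were called lower and 7.22% higher. The members' median was -1.27 in batch 1 and -0.83 in batch 2 on the log2 scale, and the log2 fold change was negative in both batches for 30 of the 38 members tested in both. That held for 34.4% of all genes. Opposite signs were found for 6 members, Fbln2, Ltbp1, Omd, Ogn, Tnc and Lox, and for 33.6% of all genes. In batch 1 the knockout libraries were the shallower ones, and with all libraries thinned to the shallowest total 23 members were called lower. The share of all genes called after thinning is not given here.

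**Figure D4:**
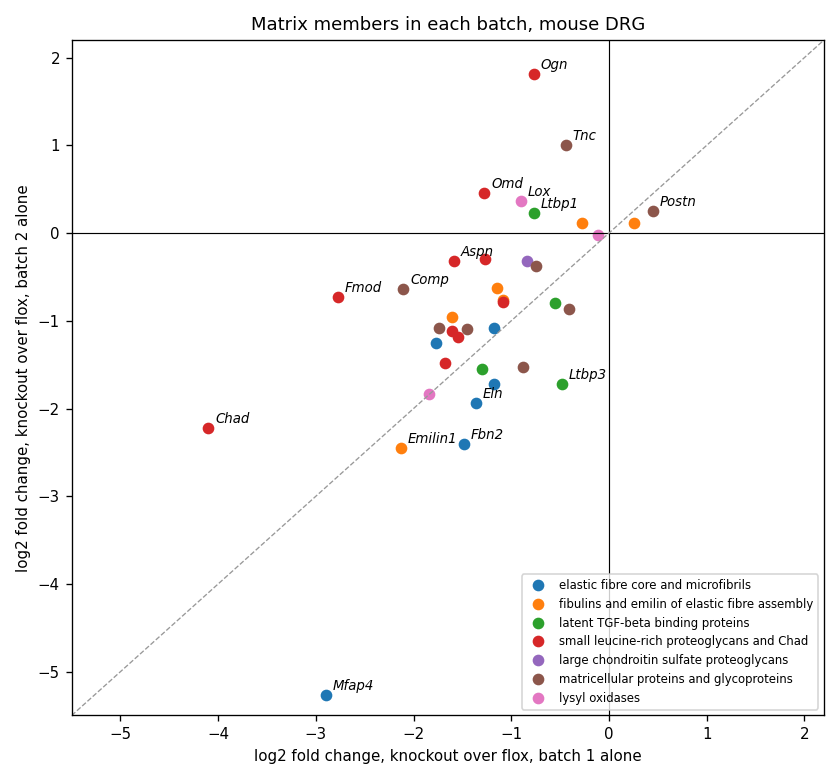
Log2 fold change of each tested member, knockout over flox, in batch 1 alone (horizontal) and batch 2 alone (vertical), coloured by class, with a dashed line of equal values. Most points lie in the lower left quadrant, 30 of 38, and Ogn stands at -0.77 and 1.81.

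Fibroblast markers moved with these genes, though the marker lists too were chosen with earlier results of these data known. Of 16 markers 15 were tested, 10 were lower and 0 higher, where 7.51% of all genes were called lower and 7.97% higher. Tcf21 was at 0 in every library. Summed over the fibroblast markers, batch 1 held 499 to 686 TPM in knockout and 654 to 1190 TPM in flox libraries. The batch 2 sums were 1217 to 1972 TPM for knockout and 2717 to 3863 TPM for flox. Gsn alone averaged 256 TPM (knockout) and 549 TPM (flox) in batch 1, and 1370 TPM (knockout) and 2879 TPM (flox) in batch 2. The batch 2 sums were therefore mostly the level of this 1 gene. Of 11 markers of meningeal and dural fibroblasts 9 were lower, with sums of 59.0 to 91.2 TPM in knockout and 111 to 309.9 TPM in flox libraries of batch 1. In batch 2 they were 127 to 448 TPM in knockout and 453 to 596 TPM in flox libraries. Perineurial markers were lower in 4 and higher in 1 of 8 tested cases, and myelinating Schwann cell markers lower in 5 of 8. Bone markers were lower in 3 of 7 tested cases, smooth muscle and pericyte markers in 2 of 8 and tendon markers in 1 of 5. All 8 neutrophil markers were higher, and 3 of 8 neuronal markers. None of the 9 skeletal muscle, 6 endothelial or 6 erythroid markers was called. Skeletal muscle sums differed widely within a group, from 17.2 to 2212 TPM in batch 1 knockout and from 36.9 to 4096 TPM in batch 2 flox libraries. Myh2, Mb, Acta1 and Tnnt3 had SEs of 1.07 to 1.67 on the log2 scale. Erythroid sums ran from 5392 to 86235 TPM in batch 1 knockout libraries. For muscle and erythroid markers the lack of a call therefore does not show equal content. The part of these cell types in the members' result was not tested.

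Neighbouring matrix genes outside the list were read from lists by function, also chosen with earlier results of these data known. Their counts stand beside 7.51% of all genes called lower and 7.97% called higher. Of 20 other elastic fibre and microfibril genes 7 were lower and 0 higher. They included Fbln7, which encodes fibulin 7 (-1.35 ± 0.28), Hmcn1, which encodes hemicentin 1 (-1.33 ± 0.28), and Emilin3 (-3.05 ± 0.68). Adamtsl5, which encodes a microfibril-binding protein, had a log2 fold change of -1.32 ± 0.26 (adjusted p = 0.00321). The other 2 lysyl oxidases gave 1 higher call, Loxl4 (1.35 ± 0.41, adjusted p = 0.0352).

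Of 26 other proteoglycans and link proteins tested, 6 were lower and 1 higher. Sdc1, which encodes the cell surface proteoglycan syndecan 1, rose by 1.29 ± 0.13 (SE, adjusted p = 9.20e-06). Its mean level was 35.0 TPM in knockout and 12.1 TPM in flox libraries of batch 1, and 22.4 TPM in knockout and 10.4 TPM in flox libraries of batch 2. Ecm2, Cspg4, which encodes the proteoglycan NG2, and Agrn, which encodes agrin, had log2 fold changes of -1.39 ± 0.24, -1.21 ± 0.26 and -0.80 ± 0.17. Of 23 other matricellular genes tested, 10 were lower and 2 higher. Tgfbi, Dpt, which encodes dermatopontin, Thbs3 and Ecm1 had log2 fold changes of -1.38 ± 0.25, -1.68 ± 0.37, -1.22 ± 0.28 and -0.90 ± 0.22. The higher ones were Spock1 and Matn2, named after their values were seen.

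The enzymes that build the sugar chains were mostly not called. Over all genes tested, 7.51% were called lower and 7.97% higher. Of 23 tested genes of glycosaminoglycan synthesis 2 were lower, the sulfotransferases Chst14 and Chst11 (-0.70 ± 0.14 and -0.75 ± 0.22), and 0 higher. Of 6 genes of keratan sulfate synthesis the sulfate transporter Slc26a2 was lower (-1.54 ± 0.35) and the sulfotransferase Chst5 higher (1.04 ± 0.32). Of 21 genes of TGF-beta activation and signalling 5 were lower and 3 higher, among them Itgb5 (-0.90 ± 0.17), Smad7 (-0.79 ± 0.20) and Itgb1 (0.36 ± 0.09). Of 16 genes of proteoglycan turnover 3 were lower and 4 higher. The higher ones included Adamts8, a secreted metalloprotease (2.22 ± 0.29), Elane, the neutrophil elastase (3.39 ± 0.53), and Ctss, the protease cathepsin S (0.72 ± 0.15), and Htra3, a serine protease, was lower (-1.26 ± 0.26).

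In the monkey DRG no member passed the test. edgeR's quasi-likelihood test called 0 of 38 tested members and 0 of all 17988 genes (0.0%) with SADBE against vehicle. At an unadjusted p under 0.05 there were 2 members, THBS2 and FBN2, against 3.06% of all genes, and DESeq2 called 27 genes and 0 members. The SADBE and vehicle libraries did not overlap for 2 tested members, LTBP3 and THBS2, both higher with SADBE, and for 9.03% of all genes. The median log2 fold change was -0.29 over the 38 members and -0.01 over all genes. It turned to 0.53 over the members without vehicle library 1, was -0.03 without SADBE library 1 and -0.58 to -0.42 without any other 1 library.

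MFAP4 stood at 15.4, 375 and 468 TPM in SADBE libraries and at 264, 14.6 and 18.6 TPM in vehicle libraries. SADBE libraries 2 and 3 and vehicle library 1 were high and the other 3 low, so the groups overlapped. MFAP4 had a log2 fold change of 1.55 ± 1.34 (SE, unadjusted p = 0.278, adjusted p = 0.999), opposite in sign to the mouse value, and the difference between species was not tested. It was 4.08 without vehicle library 1 and 0.99 to 2.11 without any other 1 library. DCN stood at 132, 758 and 914 TPM in SADBE libraries and at 1756, 488 and 208 TPM in vehicle libraries. Vehicle library 1 was highest and SADBE library 1 lowest, and the log2 fold change of DCN was -0.35 ± 0.93 (SE, unadjusted p = 0.714, adjusted p = 0.999). It turned to 0.94 without vehicle library 1 and to 0.14 without SADBE library 1.

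THBS2 stood at 28.7, 20.6 and 17.6 TPM in SADBE libraries and at 16.1, 8.68 and 5.81 TPM in vehicle libraries. All SADBE libraries were above all vehicle libraries, with a log2 fold change of 1.12 ± 0.47 (SE, unadjusted p = 0.0423, adjusted p = 0.999). FBN2 stood at 0.0800, 0 and 0.0709 TPM in SADBE libraries and at 0.329, 0.659 and 0.0537 TPM in vehicle libraries. Its counts were 0 to 97 a library, and its log2 fold change was -2.59 ± 1.11 (SE, unadjusted p = 0.0459, adjusted p = 0.999). FN1 stood at 10.8, 18.1 and 26.6 TPM in SADBE libraries and at 81.7, 56.4 and 16.9 TPM in vehicle libraries. Vehicle libraries 1 and 2 were above all others, with a log2 fold change of -1.38 ± 0.62 (SE, unadjusted p = 0.0532, adjusted p = 0.999). SPARC stood at 242, 151 and 155 TPM in SADBE libraries and at 388, 502 and 173 TPM in vehicle libraries. The groups overlapped, since vehicle library 3 was below SADBE library 1, and the log2 fold change was -0.92 ± 0.49 (SE, unadjusted p = 0.0917, adjusted p = 0.999). ACAN was not tested and stood at 0.0144 to 0.0429 TPM in all 6 libraries.

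The members varied widely between monkey libraries of a group. Vehicle library 1 was the highest vehicle library for 30 of 39 members, and for 32.4% of all tested genes. SADBE library 1 was the lowest SADBE library for 27 of 39 members, and for 38.5% of all tested genes. The members' summed level was 809.7, 2124 and 2559 TPM in SADBE libraries 1 to 3 and 3846, 1599 and 656 TPM in vehicle libraries 1 to 3. The 15 fibroblast markers summed to 457, 1167 and 1158 TPM in the same SADBE libraries and to 1997, 521 and 294 TPM in the vehicle libraries, and their part in the result was not tested.

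**Figure D5:**
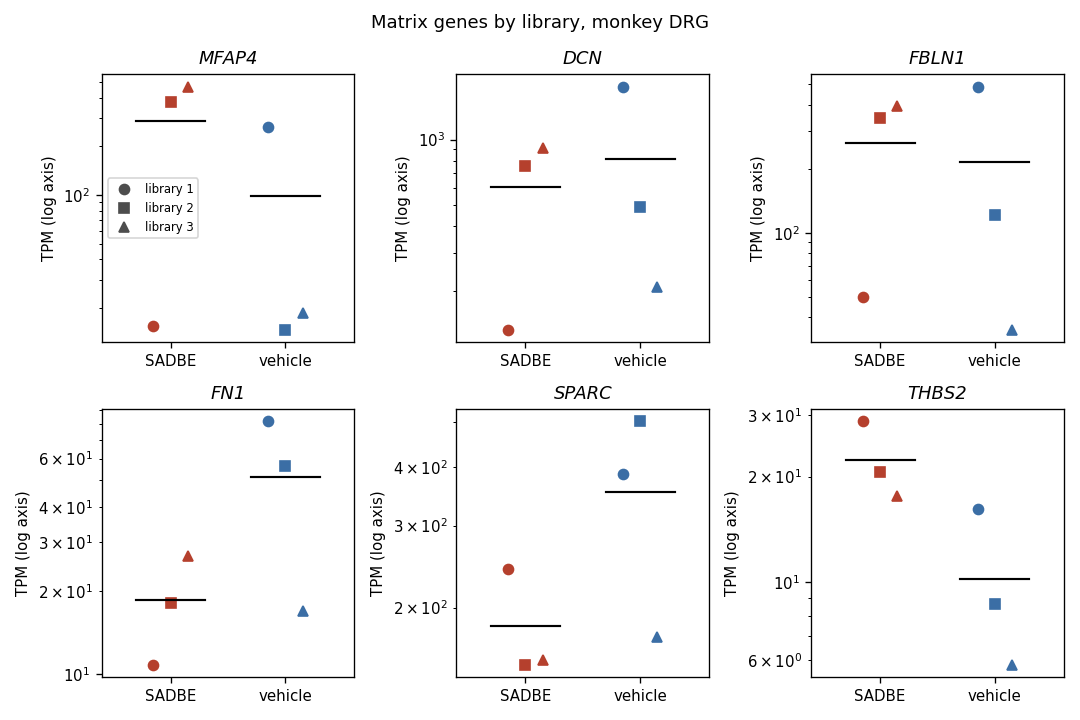
TPM of 6 matrix genes in each monkey library on a log axis, with SADBE (red) left of vehicle (blue). Symbols mark libraries 1 to 3, whose pairing between groups the labels do not give, and black lines are group means. MFAP4 is high in SADBE libraries 2 and 3 and vehicle library 1, and THBS2 is the one panel without overlap.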

How the data were processed

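Total RNA from fresh frozen DRG was sequenced, per the labels' protocols. The authors deposited tables of estimated counts, some of them fractional, and of TPM for each gene. Per the submitters' processing notes, kallisto was used and the build named is GRCm38, on monkey samples too. The kallisto version, the monkey transcriptome and the strandedness are not given in the sources used here, so reads of overlapping genes cannot be told apart.

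Estimated counts were rounded. A mouse row that names no gene, 0.0785% to 0.186% of counts, was left out. Tests used edgeR 4.0.16 (R 4.3.3), quasi-likelihood F, after filterByExpr by group (minimum count 10, minimum total 15) and TMM scaling, with robust dispersions and, in mice, batch as a term. SEs were derived from the F statistic. p-values were Benjamini-Hochberg adjusted over all genes tested, with a threshold of 0.05. The batch by genotype interaction was fitted likewise. The scripts were tested on simulated data. Alternatives were DESeq2 1.42.0, limma 3.58.1 on log2(TPM + 1) or log2(TPM + 0.1), voom, other scalings and filters, thinned counts, single batches, a replicate block and leaving out libraries. The setting that sums SADBE libraries 2 and 3, the interaction without knockout libraries 6 and 7, the interaction with the block and the library separation on rescaled TPM were chosen after seeing the data.

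SADBE libraries 2 and 3 had a chi-square per gene of 26.5, the other monkey pairs 269 to 507, and mouse pairs within a group 21.0 to 208. No pair was a copy, and each library was counted once.

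All 39 members are named. Up to 4 members per class with the lowest adjusted p, and every microfibril gene, have their levels given. Of each other list up to 4 genes with the lowest p could be named, with fold changes, and the cell type lists are given by counts and summed levels. Members and lists were chosen with earlier results of these data known. All 39 members were found by symbol in GENCODE M21 (GRCm38), which gave the coordinates.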

Additional observations from a re-analysis of the deposited data

Results flagged for a closer look

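A library far from the rest of its group, by Dixon's criterion, was found in 5 of the 78 groups of 4 libraries that were checked. Chance alone gives about 1 in 20. Ltbp2 stood at 0.309 TPM in knockout library 3, against 0.482 to 0.511 TPM in the other knockout libraries of batch 1. Ltbp4 stood at 51.1 TPM in flox library 7, against 24.8 to 27.3 TPM in the other flox libraries of batch 2. Knockout library 4 was high for Lum and Fn1, at 110.3 and 42.5 TPM, where the other knockout libraries of batch 1 held 58.5 to 60.2 and 19.1 to 22.6 TPM. Thbs1 stood at 15.3 TPM in flox library 4, against 6.00 to 7.14 TPM in the other flox libraries of batch 2.

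For a pair of members the genotype effect differed between batches by the test of the interaction. It was -1.28 on the log2 scale for Ltbp3 (adjusted p = 0.0464) and 2.55 for Ogn (adjusted p = 0.0319), batch 2 minus batch 1. Leaving out 1 library at a time, Ltbp3 kept its call without flox library 6 or knockout library 4 and lost it without any other (adjusted p up to 0.142). Ogn kept its call without flox library 1 or 6 or knockout library 4 or 5 and lost it without any other (adjusted p up to 0.104).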

How the results depend on the processing

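All 22 called members kept their sign in all 28 mouse alternatives, and 14 stayed called in all 14 fits that leave out 1 library, in which the count of lower calls ran from 15 to 24 and of higher calls was 0. The count was 3 within batch 1, 10 within batch 2 (with 1 higher) and 9 without the batch term, among them Mfap4, Emilin1, Ltbp4 and Chad. Without knockout libraries 6 and 7, 18 of the 22 were still called, Comp, Ltbp3, Sparc and Tnxb were not, and Lum, Aspn, Omd and Lox were called as well, so the count stayed at 22. Uncalled members changed sign: Fbln2 (0.11), Ltbp1 (0.23), Omd (0.46) and Lox (0.36) within batch 2, Ogn (-0.77) and Tnc (-0.44) within batch 1, Ogn (-0.30) and Tnc (-0.063) without knockout libraries 6 and 7, and Loxl2 (0.11) without the batch term. Leaving out 1 library, Fbln2 ran from -0.14 to 0.013, Tnc from -0.034 to 0.63 and Loxl2 from -0.24 to 0.039. Causes were not tested. Scaling by library totals only moved the median of all genes to -0.14 and that of the members to -1.22, with 27 members called lower. In mice, shares of all genes called are given for the main tests and the single batches only, not for the other alternatives.

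Members with a called interaction were 0 lower and 0 higher without the low count filter and without knockout libraries 6 and 7, where Fmod turned to -0.22, and 0 to 1 lower and 0 to 3 higher without 1 library. The labels do not say whether the replicate numbers pair libraries. Same-numbered mouse libraries of a batch correlated at -0.13 to 0.147 and monkey ones at -0.312 to 0.233, which cannot settle it. With the replicate block 22 mouse members were lower, 21 of them called without it too (Comp was not), and the interaction had 0 lower and 3 higher. In monkeys DCN was 0.073 with the block and -0.81 to 0.94 without 1 library, and 0 members were called in any alternative. The monkey members' median ran from -0.58 to 0.53 without 1 library and turned positive without vehicle library 1. The mouse knockout libraries of batch 1 were the shallowest.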
